A study of Mus musculus with 8 samples.

Results

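The miR-378 family was represented on the arrays by 5 of 1881 mouse miRNAs: miR-378a-3p, miR-378a-5p, miR-378b, miR-378c and miR-378d. Members were taken by name from the non-control spots of the scanner files, and all 5 entered the tests. The data were kidney miRNA profiles from 4 samples with ischemia-reperfusion injury (IRI), a model of acute kidney injury, and 4 samples from sham-operated mice, 1 single-colour array each. Per the series' design text the animals were male C57BL/6 mice aged 9 weeks. IRI mice lost the right kidney and had the left renal circulation clamped for 25 or 45 min, with harvest at 12 or 24 h. Sham mice had a midline incision and no nephrectomy, so nephrectomy and clamping cannot be told apart. The labels do not give the clamp or harvest time of single IRI samples, nor say that each sample is 1 animal. The p-values therefore measure the spread between these samples, which may be technical.

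miRNAs are short RNAs that guide Argonaute proteins to messenger RNAs, mainly through the seed, bases 2 to 8 from the 5′ end. miR-378a is the best studied of the family. Its gene lies in Ppargc1b, which encodes PGC-1beta, a coactivator of genes for mitochondrial and fatty acid metabolism. Both arms of its hairpin are made into miRNAs. In mice, loss of both arms raises mitochondrial metabolism and protects against obesity on a high-fat diet, with carnitine acetyltransferase (Crat) and the Mediator subunit Med13 as known targets. miR-378a is abundant in muscle and brown fat, tissues rich in mitochondria, and proximal tubule cells of the kidney also rely on fatty acid oxidation.

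The mature sequences are shown because the 3p-type members differ by few bases, which bears on what each probe can measure. The RefSeq table (GRCm38.p6) held miR-378b, miR-378c and miR-378d, and the seed is in capitals.
mmu-miR-378b: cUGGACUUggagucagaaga
mmu-miR-378c: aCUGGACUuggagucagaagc
mmu-miR-378d: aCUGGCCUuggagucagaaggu
miR-378b lies at chr11:88352839-88352858 (plus strand), inside Msi2. miR-378c lies at chr14:46954905-46954925 (minus strand), inside Samd4 and overlapping the long non-coding RNA gene Gm52120, and miR-378d at chr10:126710355-126710376 (minus strand), overlapping no gene of the table. The 3 seeds differ. Counting from the 5′ end of miR-378c, miR-378b starts 1 base later and carries C21A, so its seed window is shifted by 1 base along the same letters. miR-378d carries A6C, inside the seed, and C21G, with 1 extra base at its 3′ end. Each seed occurred in 0 other mature miRNAs among the 1679 in the table, a comparison made without miR-378a. All 3 sequences share a run of 14 bases, and miR-378b and miR-378c share 19.

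Each member was measured by 2 probes of 15 spots each. The probes of miR-378b, miR-378c and miR-378d are shown with the complement of that shared run in capitals.
miR-378b, shorter probe: tCTTCTGACTCCAAGt
miR-378b, longer probe: tCTTCTGACTCCAAGtc
miR-378c, shorter probe: gCTTCTGACTCCAAG
miR-378c, longer probe: gCTTCTGACTCCAAGt
miR-378d, shorter probe: acCTTCTGACTCCAAG
miR-378d, longer probe: acCTTCTGACTCCAAGg
Between 1 and 3 letters of each probe lie outside the run, and not all of these tell the members apart. The miR-378b probes, of 16 and 17 letters, are complementary to miR-378c over 15 and 16, and the miR-378c probes, of 15 and 16 letters, to miR-378b over 14 and 15. Each of these 4 probes thus differs from the other member by 1 letter. The probes of miR-378a-3p, of 13 and 14 letters, are complementary over their whole length to miR-378d as well, and over 12 and 13 letters to miR-378b and miR-378c. The first 12 letters of the run occurred in 8 of the 10 family probes and in 0 of the other 4405 probes. The 2 probes of miR-378a-5p, from the opposite arm, matched any of the 3 sequences over 4 letters at most. How far the probes of the 4 other members also bound one another's RNA was not tested, so the signals of these 4 cannot be told apart with certainty. miR-378a-5p is free of this overlap.

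All 8 arrays lay on 1 slide and were read in 1 scan. Between 393 and 447 miRNAs were detected on IRI arrays and between 327 and 379 on sham arrays. All 6 miRNAs listed as kidney epithelium markers were detected on all 8 arrays. Of 6 muscle markers, 5 were detected on no array, among them miR-133a-3p and miR-206-3p, and miR-122-5p, typical of liver, reached detection on 1 of the IRI arrays and on 0 of the sham arrays. With 4 arrays in either group, array number sets the precision of all values given here.

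All 5 members were detected on all 8 arrays, with none at the signal floor and none saturated. Values are scaled signals: the sum of a miRNA's 2 probe signals over the array's 75th percentile, taken across the 317 miRNAs that all 8 arrays detected, in arbitrary units. The levels of different miRNAs are not compared, since each probe has its own brightness.

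All 5 members were called lower in IRI, by 18.9% to 25.8% (adjusted p under 0.05, limma), and for all 5 every IRI value lay under every sham value. No member was called without scaling between arrays or with spike-in scaling, as given further on. Across the 379 tested miRNAs, 36.7% were called lower, 12.1% higher and 48.8% either way, and 35.9% had all IRI values under all sham values. The 5 members are not 5 separate measurements, since 4 of them share probe letters. The first comparison asked how much each arm of miR-378a changed after injury. miR-378a-3p had scaled signals of 852, 760.2, 833 and 798 in IRI samples 1, 2, 3 and 18. In sham samples 1, 2, 3 and 6 it had 1015, 998, 1089 and 1147. All 4 IRI values lay under all 4 sham values. The means were 811 ± 40.3 in IRI and 1062 ± 69.1 in sham (SD, n = 4), and miR-378a-3p fell by 0.39 ± 0.07 on the log2 scale (SE; adjusted p = 0.00298, limma).

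miR-378a-5p, the opposite arm, had scaled signals of 73.1, 64.9, 62.7 and 64.9 in IRI samples 1, 2, 3 and 18. In sham samples 1, 2, 3 and 6 it had 90.9, 84.7, 91.1 and 90.9. The groups did not overlap, and sham sample 2 was the lowest of its group. Its means were 66.4 ± 4.58 in IRI and 89.4 ± 3.15 in sham (SD, n = 4), a fall of 0.43 ± 0.07 on the log2 scale (SE; adjusted p = 0.00155, limma). Both arms of the 1 precursor were thus lower, and their fitted changes lay closer together than their standard errors.

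**Figure D1:**
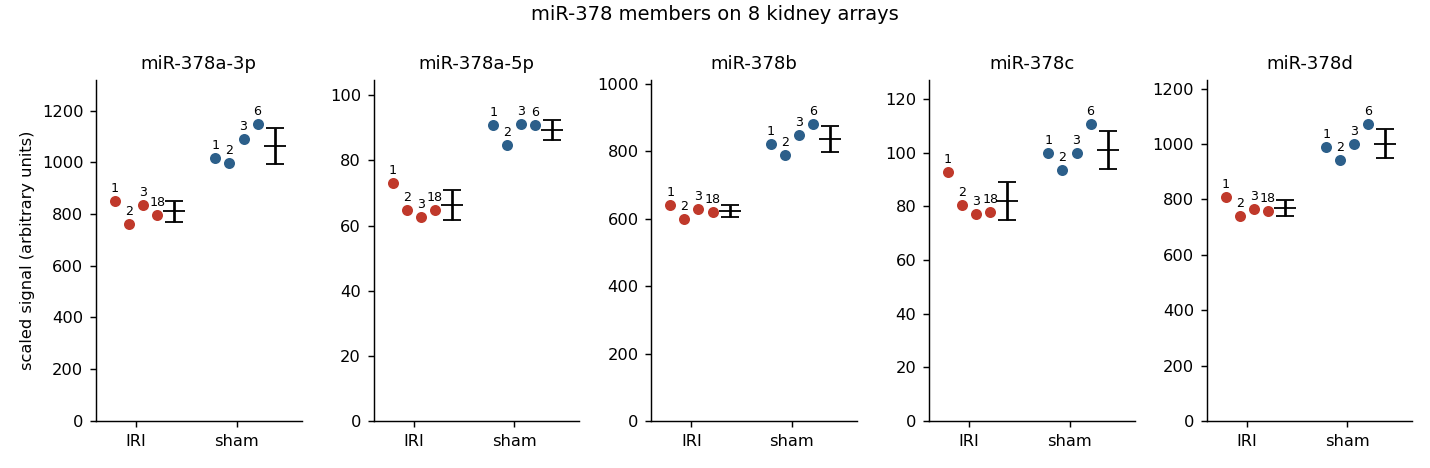
Scaled signal (arbitrary units, axis from 0) of each miR-378 member in 4 IRI samples (left, red) and 4 sham samples (right, blue), with replicate numbers beside the points and the mean ± SD as a black bar. The highest IRI value lies under the lowest sham value in all 5 panels; for miR-378c these are 92.6 and 93.4.

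The other 3 members, for which no function is given here, followed. miR-378b had scaled signals of 642, 600.5, 628 and 619.7 in IRI samples 1, 2, 3 and 18, against 823, 789, 849 and 880.4 in sham samples 1, 2, 3 and 6. Its coefficient of variation in IRI, 2.79%, was the lowest of the family. Its means were 623 ± 17.4 in IRI and 835 ± 38.6 in sham (SD, n = 4), and it fell by 0.42 ± 0.06 on the log2 scale (SE; adjusted p = 0.00111, limma). The IRI values lay closer to each other than to any sham value.

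miR-378d, which carries A6C in its seed, had scaled signals of 807, 739, 766 and 758 in IRI samples 1, 2, 3 and 18, against 988, 943, 1001 and 1071 in sham samples 1, 2, 3 and 6. Its means were 768 ± 28.6 in IRI and 1001 ± 53.0 in sham (SD, n = 4), a fall of 0.38 ± 0.06 on the log2 scale (SE; adjusted p = 0.00186, limma). No IRI value reached the lowest sham value.

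miR-378c had scaled signals of 92.6, 80.4, 77.1 and 77.8 in IRI samples 1, 2, 3 and 18, against 100.0, 93.4, 99.9 and 111 in sham samples 1, 2, 3 and 6. IRI sample 1 was the highest of its group and came close to sham sample 2. The means were 82.0 ± 7.23 in IRI and 101 ± 7.13 in sham (SD, n = 4), and the fall of 0.30 ± 0.08 on the log2 scale (SE; adjusted p = 0.0181, limma) was the smallest estimate in the family. With all 1881 miRNAs tested its call ended (adjusted p = 0.106, limma).

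The members' median log2 change was -0.39, against -0.11 for all tested miRNAs. Ranked from the most negative change, the members stood between the 19.8th percentile (miR-378a-5p) and the 34.3rd (miR-378c), so their changes were moderate among those measured.

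**Figure D2:**
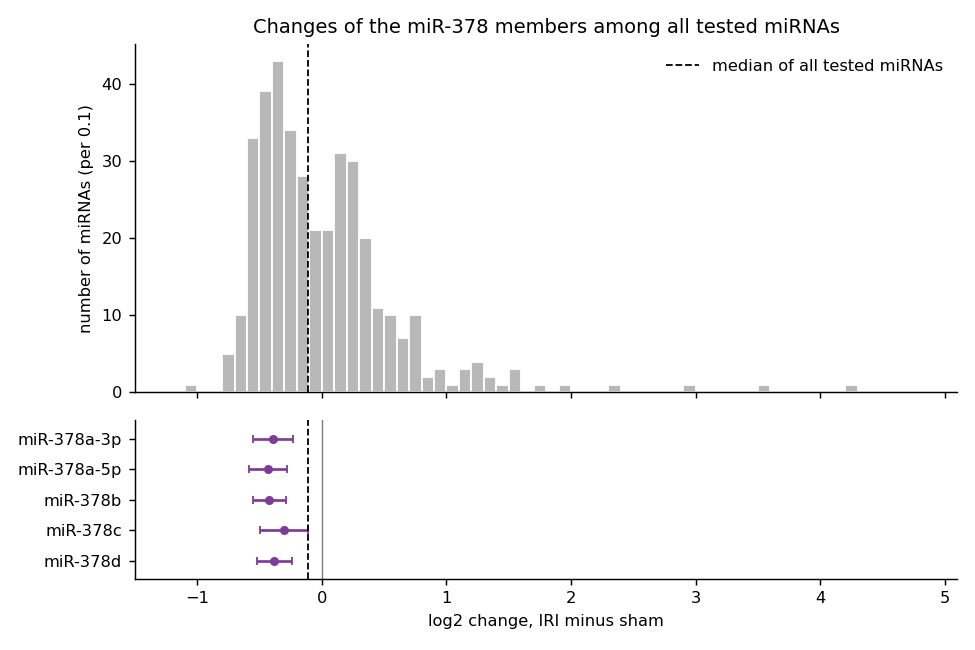
Upper panel: number of tested miRNAs (379) by log2 change, IRI minus sham, with a dashed line at their median of -0.11. Lower panel: log2 change of each member with its 95% confidence interval from limma; all 5 points lie left of the median line, and the miR-378c interval, from -0.50 to -0.11, reaches furthest right.

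These falls are relative to the rest of each array. Without scaling between arrays the groups overlapped for all 5 members. Unscaled, miR-378a-3p had 904 ± 97.4 in IRI and 956 ± 62.1 in sham, and miR-378c 91.9 ± 16.1 in IRI and 91.0 ± 8.08 in sham (SD, n = 4). No member was called without scaling: miR-378a-3p had a log2 change of -0.09 (adjusted p = 0.595, limma) and miR-378a-5p of -0.13 (adjusted p = 0.535, limma), while miR-378b had -0.12, miR-378d -0.08 and miR-378c 0.0015. Scaling to the labelling spike-in RNAs likewise gave no call, with -0.07 for miR-378a-3p, -0.11 for miR-378a-5p, -0.10 for miR-378b, -0.06 for miR-378d and 0.02 for miR-378c. Under these settings the median of all tested miRNAs was 0.17 and 0.19, against -0.11 with the main scaling.

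The members' changes lay 0.19 to 0.32 under that median with the main scaling and 0.16 to 0.29 under it both without scaling and with the spike-ins. Scaling by 1 factor per array moves all miRNAs above the floor alike, so this distance is nearly fixed by construction and is no test of the falls. Quantile normalization kept all 5 calls but spread the members out, from -0.18 for miR-378d to -0.51 for miR-378a-5p. In the authors' deposited table the groups also did not overlap for any member. Its values are linear ratios with a scaling not given in the sources used here. The share of all miRNAs without overlap was not taken for that table. Its pair changes of the members match the main ones, so it is the same measurement under another scaling and no separate support. There miR-378a-3p had 0.813 ± 0.0873 in IRI and 1.10 ± 0.029 in sham (SD, n = 4), a log2 change of -0.44 (adjusted p = 0.00529, limma). The 75th percentile of signal used for scaling was 445 to 562 on IRI arrays and 356 to 456 on sham arrays. The members' falls are therefore falls relative to an array-wide signal that was itself higher on the IRI arrays on average.

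**Figure D3:**
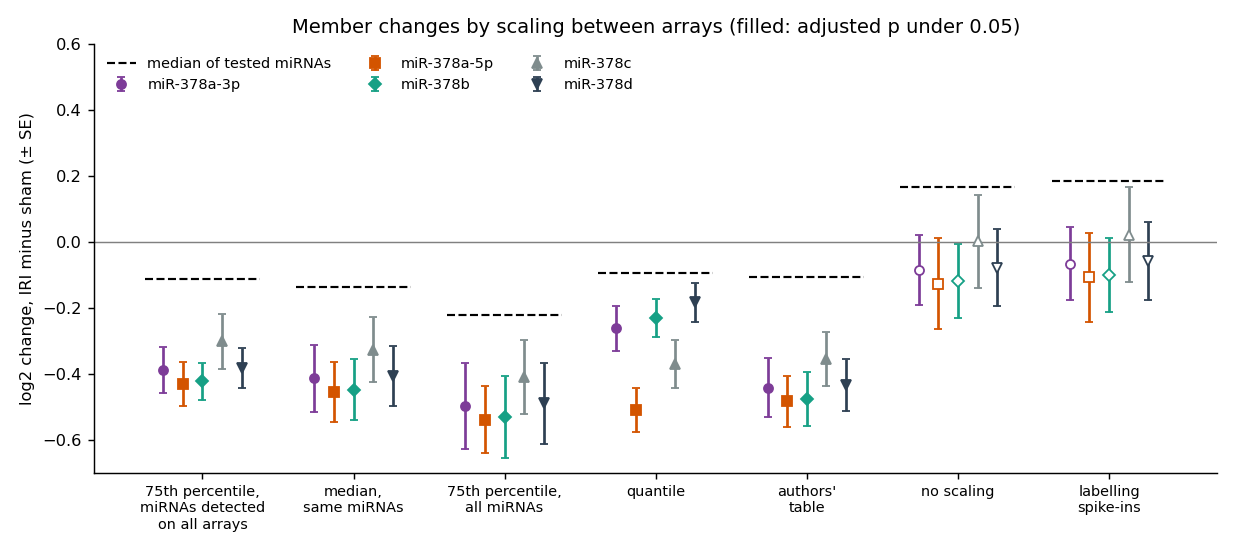
Log2 change, IRI minus sham (± SE), of the 5 members under 7 ways of scaling the arrays; filled symbols have an adjusted p under 0.05, and the dashed bar is the median of the tested miRNAs. The members lie around 0 and are uncalled in the last 2 columns, without scaling and with the spike-ins; their distance from the dashed bar is nearly fixed wherever 1 factor per array was used.

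IRI arrays lay in slide row 2 and sham arrays in slide row 1, so row and group cannot be told apart, while every slide column paired an IRI array with a sham array. Within columns all 20 comparisons (5 members in 4 columns) were lower in IRI, by a log2 difference of -0.54 to -0.11. The smallest was miR-378c in column 1. That all 20 were lower follows from the lack of overlap given above and is no further support. Without scaling 18 of the 20 were lower, between -0.22 and 0.14, and both exceptions were miR-378c, in columns 1 and 2. miR-378d in column 2 was at -8.46e-05, close to no difference. The unscaled share over all miRNAs was not taken. The 20 rest on 4 array pairs, and 4 of the 5 members share probe letters, so the count of 18 is no support either.

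The next question was whether members of the family changed by different amounts. The log2 difference between 2 members on the same array does not depend on scaling by 1 factor per array, and the 10 pairs were compared between groups with an exact two-sided permutation test over 35 splits of the 8 arrays. No pair passed after Benjamini-Hochberg adjustment over the 10 pairs (exact permutation, adjusted p from 0.286 to 0.943). A lone pair at the smallest p that 35 splits allow has an adjusted p of 0.286, so the adjustment could be passed only by several pairs at once, and its failure says little. At an unadjusted p under 0.05 there was 1 pair, miR-378d minus miR-378b: the within-array log2 difference was 0.30 ± 0.02 in IRI and 0.26 ± 0.02 in sham (SD, n = 4; exact permutation p = 0.0286, the smallest that 35 splits allow). All 4 IRI values exceeded all 4 sham values for that pair, by a mean of only 0.04. The standard error of this difference between groups was 0.013. Both members share probe letters, and this was 1 of 10 pairs.

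For the arms of miR-378a, miR-378a-5p minus miR-378a-3p changed by -0.04 ± 0.06 between groups (SE; exact permutation p = 0.514, adjusted p = 0.643). The within-array difference ran from -3.73 to -3.54 in IRI and from -3.66 to -3.48 in sham. miR-378c had the least negative estimate: its change exceeded that of miR-378a-5p by 0.13 ± 0.04 (SE; exact permutation p = 0.0571, adjusted p = 0.286), that of miR-378b by 0.12 ± 0.06 and that of miR-378a-3p by 0.09 ± 0.06 on the log2 scale. With 4 arrays per group, neither equal nor unequal changes of the members were shown.

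**Figure D4:**
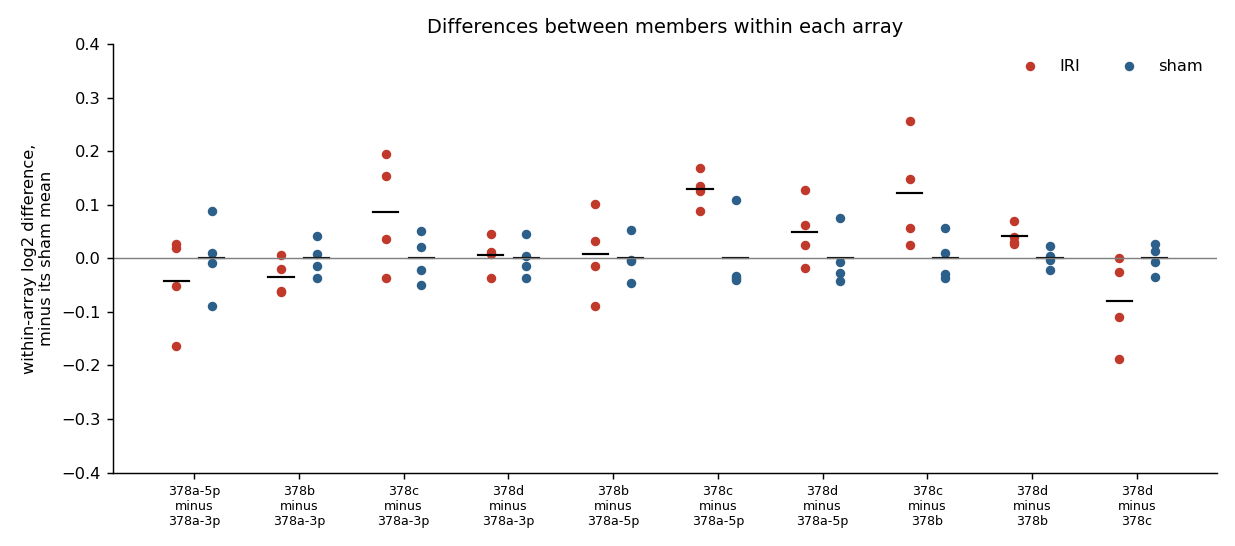
Log2 difference between 2 members on the same array, minus the mean of that difference over sham arrays, for the 10 pairs, with IRI (left, red) and sham (right, blue) points for 4 arrays each and black bars at the means. Group means differ by -0.08 to 0.13, and the widest IRI spread, an SD of 0.11, is that of miR-378c minus miR-378a-3p.

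Likeness among the members was also described within groups. With group means removed, log2 signals of miR-378a-3p, miR-378b and miR-378d correlated with r from 0.92 to 0.97 over the 8 arrays, and the 7 pairs with miR-378a-5p or miR-378c from 0.50 to 0.88. The first 3, like miR-378c, share array, scaling and probe letters, so these values are a description. miR-378a-5p, which shares no such probe letters, had r = 0.50 with miR-378a-3p within groups and r = 0.95 when the group difference was included. Within groups its r was 0.60 with miR-378b, 0.69 with miR-378d and 0.88 with miR-378c.

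At the level of single probes, all 10 were lower in IRI and 9 showed no overlap between groups. The share over all probes of the array was not taken. Since 8 of the 10 hold the same 12 letters and make up the members' signals given above, these counts are no separate support. The 2 probes of miR-378a-3p changed by -0.40 and -0.38 on the log2 scale, those of miR-378d by -0.38 and -0.38, those of miR-378b by -0.45 and -0.42, and those of miR-378a-5p by -0.42 and -0.44. Probes of 1 miRNA thus gave like values. The exception was the shorter miR-378c probe, of 15 letters, with 13.9 ± 2.11 in IRI and 16.1 ± 1.36 in sham (SD, n = 4), a change of -0.22 with overlapping groups. Its spots varied most: the coefficient of variation over the spots of 1 array had a median of 25.4%, against 3.36% to 12.6% for the other 9 probes. The longer miR-378c probe changed by -0.32, with no overlap.

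**Figure D5:**
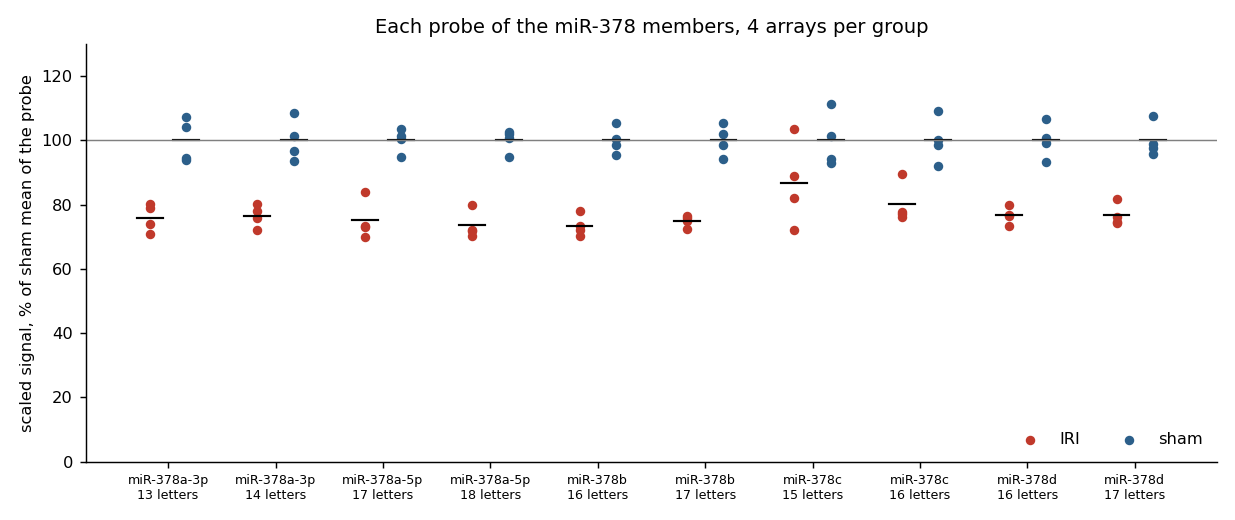
Scaled signal of each of the 10 family probes as a percentage of that probe's sham mean (axis from 0), with IRI (left, red) and sham (right, blue) points for 4 arrays each and black bars at the means. IRI and sham points overlap for the 15-letter miR-378c probe and for no other.

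Between arrays of a group the coefficient of variation of a member's scaled signal was 2.79% to 8.82% in IRI and 3.52% to 7.06% in sham. The scanner software's own error for a member's total signal was 7.18% to 10.6% on any 1 array. With the main scaling, the falls of 18.9% to 25.8% exceeded each of these. Without scaling no member was called. Over the spots of 1 array the shorter miR-378c probe had a coefficient of variation of up to 33.3%.

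Other miRNAs linked to energy metabolism were counted from a list that does not hold the family. Of a list of 24, 15 were tested. Of those 15, 10 were called lower and 0 higher, beside 36.7% lower and 12.1% higher over all tested miRNAs, and 5 did not pass. The median log2 change of the 15 was -0.36, beside -0.11 for all tested miRNAs. The list was chosen with earlier results of these data known, so these counts are no test. Its entries are not all separate: miR-455-5p and miR-455-3p, both called lower, are arms of 1 hairpin. Among the 5 that did not pass, miR-338-5p lay at the signal floor in both groups. The 9 not tested included miR-122-5p of liver and miR-208a-3p, miR-208b-3p and miR-499-5p of heart and slow muscle. By the rule on brightness, the 3 named are miR-494-3p, miR-23a-3p and miR-107-3p. miR-107-3p, whose gene lies in the pantothenate kinase gene Pank1 of coenzyme A synthesis, had 1643 ± 166 in IRI and 2635 ± 132 in sham (SD, n = 4) and fell by 0.69 ± 0.08 on the log2 scale (SE; adjusted p = 0.000875, limma). miR-23a-3p, which in human cells represses glutaminase, had 2219 ± 127 in IRI and 2619 ± 113 in sham (SD, n = 4) and fell by 0.24 ± 0.06 (SE; adjusted p = 0.0162, limma). miR-494-3p had 3072 ± 469 in IRI and 3204 ± 454 in sham (SD, n = 4), a log2 change of -0.06 (adjusted p = 0.711, limma). Without scaling and with the spike-ins 0 of the 15 were called.

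The miRNAs whose log2 signal was most like that of miR-378a-3p over the 8 arrays, among 312 outside the family that were detected on all arrays, were miR-196b-5p (r = 0.98), let-7i-5p (0.98), let-7b-5p (0.97), miR-149-5p (0.96) and miR-196a-5p (0.96). With group means removed, r was 0.81 for miR-196b-5p, 0.83 for let-7i-5p, 0.68 for let-7b-5p, 0.84 for miR-149-5p and 0.64 for miR-196a-5p. All 5 were called lower in IRI, by 0.48 ± 0.07, 0.18 ± 0.05, 0.41 ± 0.06, 0.28 ± 0.07 and 0.52 ± 0.05 on the log2 scale in that order (SE; adjusted p from 0.000608 to 0.0233, limma). Over all tested miRNAs 36.7% were called lower. The 5 were picked by correlation with a miRNA whose groups did not overlap, so their lower calls largely follow from that choice. Without scaling only 1 of the tested miRNAs was called lower. miR-196a-5p is also on the epithelium list and miR-149-5p on the energy metabolism list. The arrays share slide, scaling and group difference, and the values describe likeness only.

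With the main scaling, markers of cell types moved in the same comparison. Without scaling 1 of the tested miRNAs was called lower, and with the spike-ins 2, so most lower calls depend on the scaling. The marker sums were taken with the main scaling only. The summed scaled signal of the 6 kidney epithelium markers was 12675 to 14482 on IRI arrays and 17394 to 19966 on sham arrays. That of the 4 miRNAs listed for brown fat, which also stand on the energy metabolism list and are made in other tissues, was 592 to 692 in IRI and 919 to 1056 in sham. That of the 6 muscle markers was 21.5 to 31.53 in IRI and 31.47 to 43.1 in sham, which overlap slightly. Only miR-1a-3p of these 6 was detected, on all 8 arrays, and it was called lower (log2 change -0.54, adjusted p = 0.00477, limma). Its mean scaled signal in IRI, 17.2, lay under the signal floor of 17.3, so its change rests in part on floored values. The 3 markers for red blood cells summed to 2940 to 4087 in IRI and 43.0 to 902 in sham. All 3 were called higher, beside 12.1% of all tested miRNAs, but only miR-451a was detected on all 8 arrays. miR-144-3p was detected on 4 IRI and 2 sham arrays, and miR-486a-5p on 4 IRI and 0 sham arrays. These 2 were thus tested only through the group where they were high, so the count of 3 says little. The 3 markers for leukocytes summed to 625 to 904 in IRI and 418 to 563 in sham, but did not move as 1 group. miR-223-3p, of granulocytes and monocytes, was called higher (log2 change 1.53, adjusted p = 0.000488, limma). miR-142a-3p, found across blood cells, had a log2 change of 0.29 (adjusted p = 0.16, limma), and miR-150-5p, of mature lymphocytes, had -0.57 (adjusted p = 0.0566, limma). The part of these shifts in the members' falls was not tested. In whole kidney, fewer cells of a type and less RNA per cell cannot be told apart.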

How the data were processed

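Kidney total RNA was labelled with Cy3 and hybridised to Agilent miRNA arrays, per the labels' protocols. Spot intensity in the deposited scanner output is linear. Per the file headers, Agilent software (Feature Extraction, version 12.0.3.1) subtracted a fitted background surface and did not normalize arrays to each other. The authors also deposited a table of 1 linear ratio for each miRNA and sample, which served as an alternative. How it was scaled and centred is not stated. Pair changes of the members there matched the main ones (0.1293 in both for miR-378c minus miR-378a-5p). For the members it thus holds the same signals, up to 1 factor per array and 1 per miRNA.

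Control and outlier spots were left out. Processed signals were averaged per probe and summed per miRNA. Scaling used the 75th percentile of each array across the 317 miRNAs that all 8 arrays detected. Values under 17.3, the 5th percentile over detected miRNAs, were set to that floor before log2. limma 3.58.1 (R 4.3.3) was run on 379 miRNAs, those with detection in every array of the IRI group, the sham group or both (two-sided, Benjamini-Hochberg over all 379, threshold 0.05). The fit was checked on simulated data. Groups and replicate numbers came from the sample titles. Likeness was ranked by Pearson correlation with miR-378a-3p. Besides the 5 members, the text names the 3 brightest tested miRNAs of the energy metabolism list, the 5 most like miR-378a-3p, and listed markers. Members and lists were chosen with earlier results of these data known. Sequences are RefSeq's (GRCm38.p6) and the array's own probes; the array design names build mm9. Sequences of miR-378a were not used here.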

Additional observations from a re-analysis of the deposited data

Results flagged for a closer look

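Of 50 groups of 4 values checked (members, member pairs and probes, IRI and sham), 3 held a sample set apart from the rest by a gap above Dixon's 95% critical value, where chance gives about 1 in 20. miR-378a-5p had a scaled signal of 84.7 in sham sample 2, against 90.9 to 91.1 in the other 3. The within-array log2 difference of miR-378c minus miR-378a-5p was 0.28 in sham sample 6, against 0.13 to 0.14 in the others. The longer miR-378c probe had a scaled signal of 76.0 in IRI sample 1, against 64.6 to 66.1 in the others.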

How the results depend on the processing

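The directions and calls of all 5 members held with percentile scaling over all miRNAs, median scaling, quantile normalization, normexp background correction, software total signals, spot medians, kept outlier spots, the deposited table, both other floors, the stricter filter, both variance models, the slide column block and without any 1 array. Without 1 array, log2 changes were -0.42 to -0.35 (miR-378a-3p), -0.48 to -0.40 (miR-378a-5p), -0.45 to -0.40 (miR-378b), -0.36 to -0.26 (miR-378c) and -0.41 to -0.35 (miR-378d), with miR-378c at an adjusted p up to 0.0486 (limma). Without scaling, changes were -0.0855, -0.128, -0.12, 0.0015 and -0.0786 in that order, with 1 miRNA called lower, and with the spike-ins -0.0658, -0.108, -0.10, 0.0212 and -0.0589, with 2 lower and 72 higher. Energy metabolism calls numbered 0 in both. Normexp left 18 miRNAs higher, and testing all 1881 left 90 lower and 21 higher and ended the miR-378c call (-0.30). With the replicate block over numbers 1, 2 and 3, 50 were lower and 17 higher, and miR-378a-3p (-0.34), miR-378a-5p (-0.41), miR-378c (-0.23) and miR-378d (-0.34) were not called (adjusted p = 0.0569, 0.0537, 0.133 and 0.0537, limma); miR-378b stayed called. The same 6 arrays unblocked, an alternative chosen after seeing the data, gave 121 lower and 37 higher and ended only the miR-378c call (-0.23, adjusted p = 0.0845, limma). Whether the numbers pair the samples was not settled. Numbers 1, 2 and 3 are also slide columns 1, 2 and 3, where deviations from group means correlated by -0.16, -0.20 and 0.24. In slide column 4 the correlation was 0.50. So few values cannot decide on pairing. No member pair was called under any of 13 alternatives, where few splits make a call hard to reach, and the sign-flip test within slide columns cannot go below p = 0.125 (exact). Among these, software totals and the deposited table gave the main pair changes again and are no separate checks. Signs turned with normexp for miR-378a-5p minus miR-378a-3p (0.0194), miR-378b minus miR-378a-5p (-0.0478) and miR-378d minus miR-378a-5p (-0.0138). Without 1 array, miR-378b minus miR-378a-5p ran from -0.0231 to 0.0399 and miR-378d minus miR-378a-3p from -0.00565 to 0.0222. The causes of these shifts were not tested. Low signal limits the shorter miR-378c probe, whose spots varied most.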
